A study of Mus musculus with 14 samples.

Results

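The open chromatin described here lies at 6 mouse genes of the B-lineage transcription programme: Ebf1, Pax5, Pou2af1, Pou2f1, Pou2f2 and Zcchc7, the gene that follows Pax5 on chromosome 4. Its peaks are those that the deposited merged list gives one of these names, 67 in number, plus 9 peaks inside the Zcchc7 gene that carry another name. That makes 76 of the 92842 peaks of the list. The peaks came from ATAC-seq, an assay that uses a transposase to insert adapters into accessible chromatin. It was run on 7 cell types sorted with antibodies from wild-type C57BL/6 mice aged 8 to 12 weeks: MPP (multipotent progenitor), CMP (common myeloid), CLP (common lymphoid), GMP (granulocyte/macrophage), MEP (megakaryocytic-erythroid), ProB (B cell progenitor) and ProT (T cell progenitor), ProT from thymus and the others from bone marrow. Each cell type had 2 libraries, 14 in all, and the labels do not say whether the 2 came from different animals or from pooled ones.

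Every peak in the list is 499 bp wide and has a score of 0, and the list holds no value per library or per cell type. Which of the 7 cell types a peak was open in is therefore unknown, depth is unknown, the 2 libraries of a cell type are not separated, and ProB could not be set against the other cell types. The values below are positions, distances and counts, given beside the same values over the rest of the list, without a test. Cell type labels could not be checked against markers for the same reason.

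EBF1 and PAX5 are DNA-binding proteins that act one after the other in early B cell development. EBF1 specifies lymphoid progenitors towards the B lineage, and PAX5 commits them to it by activating B cell genes and shutting down genes of other lineages; the 2 also maintain each other's expression. OCT1 (from Pou2f1) and OCT2 (from Pou2f2) bind the octamer motif of immunoglobulin promoters and enhancers; OCT1 is made in most cells, and OCT2 is most abundant in B cells and neurons. The Pou2af1 product, OCA-B, has no strong DNA binding of its own and joins OCT1 or OCT2 on the octamer as a coactivator, mainly in B cells. ZCCHC7 is a zinc knuckle protein that in human cells belongs to a nuclear RNA surveillance complex, and it is treated with Pax5 because human B cells have a distal PAX5 enhancer near ZCCHC7.

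The starts of these genes differed in sequence and in how they met the peaks. RefSeq gave, on GRCm38.p6 (mm10), 9 promoter windows for the 6 genes, each from 250 bases before to 50 bases after a start. Of these, 6 overlapped a peak and 4 lay wholly inside one, while 41.7% of all 32851 windows overlapped a peak by at least 1 base. The 250 bases before 6 of the starts are shown 5′ to 3′ because 5 of these windows overlap a peak and the one at Ebf1 does not; capitals mark CpG dinucleotides.
Ebf1, outer start (chr11:44617850-44618099, + strand): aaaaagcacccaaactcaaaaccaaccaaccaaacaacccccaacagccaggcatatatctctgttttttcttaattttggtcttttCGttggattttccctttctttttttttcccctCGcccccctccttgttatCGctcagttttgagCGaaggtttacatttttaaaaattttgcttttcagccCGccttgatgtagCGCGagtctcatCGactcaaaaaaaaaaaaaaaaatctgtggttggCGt
Pax5 (chr4:44710695-44710944, - strand): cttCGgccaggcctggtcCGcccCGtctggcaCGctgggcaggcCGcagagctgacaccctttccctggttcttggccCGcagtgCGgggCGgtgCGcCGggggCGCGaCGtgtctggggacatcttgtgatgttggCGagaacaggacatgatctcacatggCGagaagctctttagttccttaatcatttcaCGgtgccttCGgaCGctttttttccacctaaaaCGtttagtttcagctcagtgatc
Pou2af1 (chr9:51213440-51213689, + strand): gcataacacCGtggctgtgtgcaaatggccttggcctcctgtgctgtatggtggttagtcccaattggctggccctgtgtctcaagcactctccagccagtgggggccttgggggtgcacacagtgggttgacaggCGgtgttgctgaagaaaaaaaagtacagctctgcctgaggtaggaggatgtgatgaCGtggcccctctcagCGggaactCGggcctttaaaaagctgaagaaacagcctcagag
Pou2f1, outer start (chr1:166002635-166002884, - strand): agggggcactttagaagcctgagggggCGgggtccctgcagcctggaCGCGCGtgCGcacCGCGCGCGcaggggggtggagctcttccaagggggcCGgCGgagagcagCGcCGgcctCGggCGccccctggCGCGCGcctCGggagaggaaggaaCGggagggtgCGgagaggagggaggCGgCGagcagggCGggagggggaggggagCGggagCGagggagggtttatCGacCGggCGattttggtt
Pou2f1, inner start (chr1:165934949-165935198, - strand): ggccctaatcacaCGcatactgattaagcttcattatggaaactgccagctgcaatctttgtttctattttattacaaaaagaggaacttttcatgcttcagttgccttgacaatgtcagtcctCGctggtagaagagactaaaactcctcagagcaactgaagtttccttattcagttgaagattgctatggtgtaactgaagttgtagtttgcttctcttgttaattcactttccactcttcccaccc
Pou2f2 (chr7:25132461-25132710, - strand): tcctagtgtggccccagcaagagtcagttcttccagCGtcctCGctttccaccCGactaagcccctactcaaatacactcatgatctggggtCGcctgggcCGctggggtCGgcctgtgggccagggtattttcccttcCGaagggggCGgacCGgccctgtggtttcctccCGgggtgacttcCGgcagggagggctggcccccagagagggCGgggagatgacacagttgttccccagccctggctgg

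Pou2f1 had open chromatin at 2 starts of opposite composition. Its outer start window held 32 CpG in 300 bases and 289 of those bases lay in a peak, whereas its inner start window, which lay wholly in another peak, held 2 CpG. The median over all windows was 7. Another RefSeq start of Pou2f1, between these, also had 2 CpG, and its nearest peak centre was 4664 bp away. The Pax5 window had 23 CpG, that of Zcchc7 18 and that of Pou2f2 13, all wholly inside a peak, and the Pou2af1 window had 8, with 226 of its 300 bases in a peak.

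The windows of Ebf1 were the exception. Mouse Ebf1 is known to be driven by a distal and a proximal promoter. Of its 2 RefSeq start windows, one (9 CpG) had its nearest peak centre 985 bp away and the other (17 CpG) 3113 bp away, and neither shared a base with a peak. The peak that the list calls the Ebf1 promoter (chr11:44616866-44617364) ended before the outer window began.

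Short motifs of B-lineage and blood factors were searched in the 9 windows on both strands. The octamer ATGCAAAT, bound by OCT1 and OCT2, was in none of them, and 1.74% of all windows held it. The palindromic Ebf motif, TCCC and GGGA separated by any 2 bases, was in none either, against 0.904% of all windows. The Ets motif GGAAGT was in the Pou2f2, Zcchc7 and inner Ebf1 windows (23.8% of all windows). The Runx motif TGTGGT was in the Pou2f2 and outer Ebf1 windows (16.8%). The Ikaros motif TGGGAA was in the inner Pou2f1 and inner Ebf1 windows (25.6%), and the E-box CAGCTG in the inner Pou2f1 window (16.3%). At Pou2f2 the Runx and Ets matches began 91 and 71 bases before the start. Some of these motifs can share bases with one another, matches are descriptions of letters only, and the Pax5, Pou2af1 and outer Pou2f1 windows held none of the 6 motifs.

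Counted by name, Pou2f1 led with 21 peaks and Ebf1 followed with 18. Pou2af1 had 12, Pou2f2 6, and Pax5 and Zcchc7 5 each. The median over the 19105 genes named in the list was 3. Pou2f1 stood at the 97.9th percentile of these genes, Ebf1 at the 96.7th and Pou2af1 at the 91.8th, while Pou2f2 stood at the 75th and Pax5 and Zcchc7 at the 68.7th. Pou2f1, made in most cells, thus had the most peaks by name, and 1349 other genes had exactly as many as Pax5. Each of the 6 had a peak of its own name at most 1 kb from a TSS, as did 55.5% of the 21887 RefSeq protein-coding genes.

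**Figure D1:**
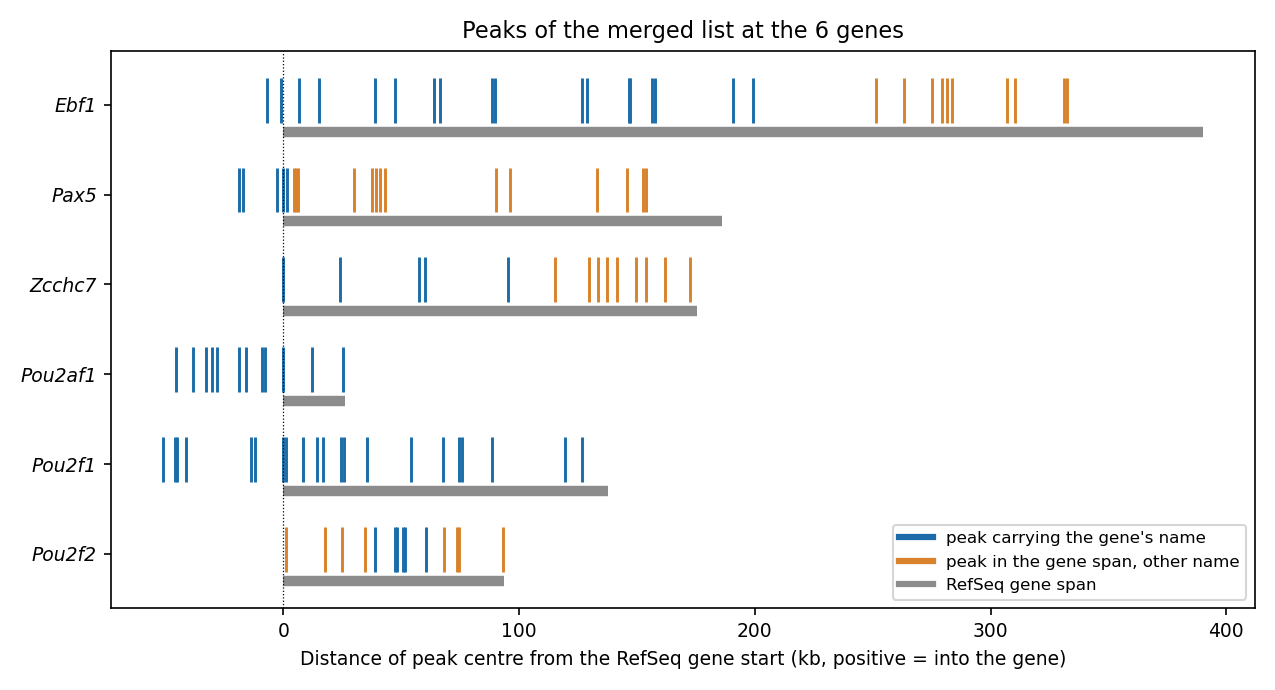
Peaks at the 6 genes, each drawn at the distance of its centre from the RefSeq gene start in kb (x axis), with 1 row per gene. Blue ticks carry the gene's own name, orange ticks lie in the gene span under another name and grey bars are the spans; 10 of the 26 ticks in Ebf1, 14 of 15 in Pax5 and 9 of 13 in Zcchc7 are orange.

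Counted by the gene they lie in, the order was different, because the list names a peak after the nearest TSS of any transcript. The Pax5 span (chr4:44524748-44710694, 186 kb) held 15 peak centres, and 14 of them were named 5730488B01Rik, a noncoding RNA gene with its start inside Pax5. The Zcchc7 span (chr4:44756558-44932215, 176 kb) held 13, of which 9 were named Grhpr, the next coding gene and a metabolic enzyme. The Ebf1 span (chr11:44618100-45008096, 390 kb) held 26, of which 10 were named Gm12159, a noncoding RNA gene beyond its far end. The Pou2f2 span (chr7:25087350-25180797, 93.4 kb) held 14, of which 4 were named Mir6537 and 4 D930028M14Rik, a microRNA and a noncoding RNA gene inside it.

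The other 2 genes kept all their peaks. The Pou2f1 span (chr1:165865150-166002749, 138 kb) held 14 centres and the short Pou2af1 span (chr9:51213690-51240079, 26.4 kb) held 2, all under their own names. In all, 41 of the 84 peak centres in the 6 spans (48.8%) carried another gene's name, against 26.4% of 53589 in the other protein-coding genes. The 53589 were summed gene by gene, so a centre in overlapping genes was counted for each of them. All 41 lay in 4 of the 6 genes, and peaks of 1 gene are not independent. Among the 1166 coding genes with at least 10 peaks in their span, Pax5 with 93.3% stood at the 96.9th percentile, Zcchc7 with 69.2% at the 86.1st, Pou2f2 with 57.1% at the 78.1st, Ebf1 with 38.5% at the 60.7th and Pou2f1 with 0% at the 11.9th, and the median share was 29.4%.

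Long genes hold more peaks, so each span was set beside coding genes 0.7 to 1.4 times as long. By span Pou2f2 stood highest, with 14 peaks at the 94.8th percentile of 2098 such genes, whose median was 4. That rank rests on the RefSeq span, which reaches beyond the transcripts behind the list. The list itself places 6 of the 14 in introns of Pou2f2, and counted in this way (introns, exons and UTRs) in every gene, Pou2f2 stood at the 72.7th percentile of the same 2098 genes (median 3). This way of counting also leaves out promoter peaks in every gene, and the Pou2f2 span holds 2 of them. What lowered the rank was not tested. Ebf1 with 26 was at the 87.5th percentile of 451 genes (median 9), Pou2f1 with 14 at the 87.0th of 1504 (median 6), Pax5 with 15 at the 82.3rd of 1055 (median 7) and Zcchc7 with 13 at the 77.3rd of 1130 (median 7). Pou2af1 with 2 peaks was at the 58.3rd percentile of 4086 genes, whose median was also 2. Counted by the list's own transcripts the percentiles were 91.8 for Ebf1, 88.8 for Pou2f1, 82.7 for Zcchc7, 81.5 for Pax5 and 71.4 for Pou2af1, so that Pou2f2 then stood above Pou2af1 only. Per 100 kb of span, Pou2f2 had 15.0 peaks, Pou2f1 10.2, Pax5 8.07, Pou2af1 7.58, Zcchc7 7.40 and Ebf1 6.67. The medians of the genes of like length were, in the same order, 4.93, 4.70, 4.06, 5.95, 4.21 and 2.52.

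None of the 6 led its length class. Of genes as long as Ebf1, 54 had more peaks, led by Gse1 with 75, the chromatin remodeller gene Arid1b with 57 and Elmo1, a regulator of Rac signalling, with 52. The leaders beside Pax5 and Zcchc7 were the Ets factor gene Etv6 with 39 and Ubac2 and Zmiz1 with 37 each. Beside Pou2f1 they were Ubac2, Pip4k2a with 33 and Mtss1 with 28. Those beside Pou2f2 were the Ets factor gene Fli1 and Rin3 with 27 each and Retreg1 with 26, and among those beside Pou2af1 were Arhgap27 with 11 and Asb2 with 10.

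**Figure D2:**
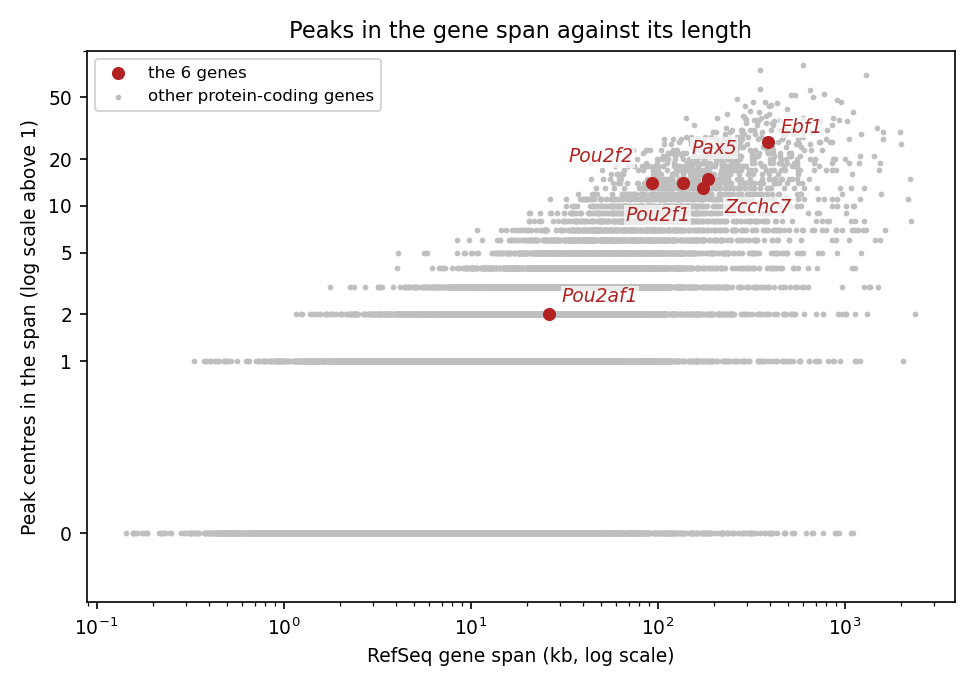
Number of peak centres in the RefSeq span (y axis, log scale above 1) against the length of the span in kb (x axis, log scale) for the 21887 protein-coding genes, with the 6 genes in red. Pou2f2, Pou2f1, Pax5, Zcchc7 and Ebf1 lie in the upper part of the cloud at their lengths, with 14, 14, 15, 13 and 26 centres, and Pou2af1 lies within it with 2.

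Ebf1 peaks lay inside the gene. Of its 18 named peaks 16 were intronic, and of the 26 in its span the list placed 14 in intron 6 of 15, 4 in intron 10, 4 in intron 8 as numbered on another transcript, 2 in intron 7 and 1 each in introns 4 and 5. Upstream of the start only the peaks at -0.985 and -7.05 kb carried its name. After the peaks at 6.65 and 15.2 kb, intron 6 held pairs and a group: pairs at 39.0 and 47.3 kb, at 64.1 and 66.6 kb, at 88.5 and 89.7 kb, at 127 and 129 kb and at 191 and 199 kb, and a group of 4 between 147 and 158 kb (chr11:44764365-44775997). The last 57.6 kb of the span held no peak centre. The widest interval between neighbouring centres was 52.2 kb, and beyond it began the peaks named Gm12159, with a single peak at 251 kb, another at 263 kb and a group of 4 between 275 and 284 kb from the start (chr11:44892903-44902175). The median distance of a named Ebf1 peak from the TSS was 89.1 kb, against 18.2 kb over all peaks without a member name.

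Pax5 had open chromatin around its start and in several introns further into the gene. A run of 6 peaks with centres at most 10 kb apart covered 9.24 kb around the start (chr4:44704317-44713552). Going into the gene, it held the promoter peak at -0.428 kb (chr4:44710619-44711117), a peak in intron 1 at +1.17 kb and 3 peaks named 5730488B01Rik between 4.52 and 6.13 kb from the RefSeq start; on the upstream side it ended with a peak in a CpG island at -2.86 kb. Only 3 of the 6 carry the Pax5 name. Upstream, a pair of peaks stood at -17.3 and -18.8 kb, the second of them in an RLTR14 element of the ERV1 class.

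Inside Pax5, intron 5 of 9 held a group of 4 peaks within 5.76 kb (chr4:44667435-44673197), one of them in a Tigger16a DNA transposon. In mouse B cell progenitors intron 5 of Pax5 is known to hold an enhancer that acts with the promoter; its position was not available here, so an overlap was not tested. Intron 4 held 1 peak, intron 6 held 2, intron 7 held 1 and intron 8 held 3, and the widest stretch without a peak, 47.2 kb, separated the peaks of introns 5 and 6. None of these 11 peaks carries the Pax5 name.

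Zcchc7 peaks were more frequent towards the far end of the gene. Split at its midpoint, the span held 10 peak centres in the part nearer to Grhpr and 3 in the part with the start. Its promoter held a peak at -0.096 kb (chr4:44756214-44756712), outside the span by its centre, and all 13 centres in the span were intronic, 7 of them in intron 2 of 8. The 4 intronic peaks that carry the Zcchc7 name stood at 24.2, 57.4, 60.2 and 95.5 kb. The 9 named Grhpr began at 115 kb from the start, and 7 of them formed a run of 32.5 kb (chr4:44886075-44918524) at the 96.3rd percentile of run sizes in the list. These 7 stood between -63.1 and -95.1 kb from the Grhpr TSS.

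From the far end of Pax5 to the start of Grhpr the chromosome 4 stretch is 457 kb long and held 39 peaks. The Pax5 span had 8.07 peaks per 100 kb, the 45.9 kb between Pax5 and Zcchc7 had 5 peaks (10.9 per 100 kb), the Zcchc7 span had 7.40 and the 49.2 kb between Zcchc7 and Grhpr had 6 (12.2). By name, 15 of the 39 went to Grhpr, 14 to 5730488B01Rik and 5 each to Pax5 and Zcchc7. A name here says only which TSS is nearest, and which gene any of these peaks acts on was not tested.

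Pou2af1 differed from Ebf1 in that most of its named peaks lay upstream of the gene. The spans differ in length, 26.4 kb at Pou2af1 and 390 kb at Ebf1. Per 100 kb of span Pou2af1 had 7.58 peaks, from 2 centres, against 6.67 at Ebf1. The medians of coding genes of like length were 5.95 per 100 kb for Pou2af1 and 2.52 for Ebf1. Of the 12 Pou2af1 peaks 10 lay upstream, and 9 of them were intergenic between -7.90 and -45.5 kb. Together with the promoter peak at -0.274 kb (chr9:51213167-51213665) these 10 peaks belonged to a run of 12 that spanned 61.5 kb, at the 99.2nd percentile of run sizes; the remaining 2 peaks of the run carry the name Btg4. The 9 upstream peaks were spaced by a median of 4.35 kb, and 1 of them lay in an MTEb element. Within the gene there was a peak in intron 1 of 4 at 12.0 kb and one in the 3′ UTR at 25.4 kb (chr9:51238795-51239293), near the end of the gene.

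Pou2f1 peaks were spread over the gene and its upstream side. The list gave 10 of the 21 a negative and 11 a positive distance, but it measured them from more than 1 start, so that the peaks at -13.5 and -32.4 kb lie in intron 1. From the outer RefSeq start, 14 peaks lay in the gene and 7 lay upstream, as far as 50.9 kb. The promoter peaks were at the outer start (chr1:166002596-166003094) and at the inner start (chr1:165934787-165935285), 67.7 kb into the gene. Another 2 peaks lay in exons, exon 14 of 17 and the last exon, exon 16 of 16, of 2 different transcripts.

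Pou2f1, the gene with the most named peaks, also had the most peaks in repeats, 6 of 21. Of these, 4 followed one another in intron 1 within 12.0 kb (chr1:165976619-165988599), one each in RMER4B, MTB_Mm, MLT1F2 and ORR1B1, all remains of endogenous retroviruses. The row was singled out after its positions had been seen. The other 2 lay in an L1MA6 element in intron 2 and a Charlie10b element upstream. As shares of the 21 peaks, repeats held 28.6% (exact interval 11.3 to 52.2), against 16.0% of all other peaks. LTR elements, the class of the 4 in the row, held 19.0% (5.45 to 41.9), against 6.59%. Both intervals hold the share of the other peaks, so the counts do not set Pou2f1 apart. The row of 4 was part of a run of 8 peaks over 36.0 kb that ended at the outer promoter, at the 97.3rd percentile of run sizes.

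Pou2f2 had a compact group of peaks. Of its 6 named peaks, 2 were promoter peaks at -0.159 and -0.815 kb, next to each other (chr7:25132370-25132868 and chr7:25133026-25133524), 2 lay in intron 1 at 2.61 and 3.39 kb, 1 in intron 4 at 12.0 kb and 1 at -9.50 kb. They belonged to a run of 12 peaks over 57.6 kb (chr7:25105847-25163482), as large as the run at Pou2af1, in which 3 other peaks were named Mir6537 and 3 D930028M14Rik. The 3 of Mir6537 lay in intron 5 of 13 of Pou2f2. The list called 5 of the 14 peaks in the RefSeq span of Pou2f2 intergenic; the span also covers predicted transcripts. One of those, in a CpG island (chr7:25179429-25179927), stood 1.12 kb inside the RefSeq span start under the name D930028M14Rik.

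**Figure D3:**
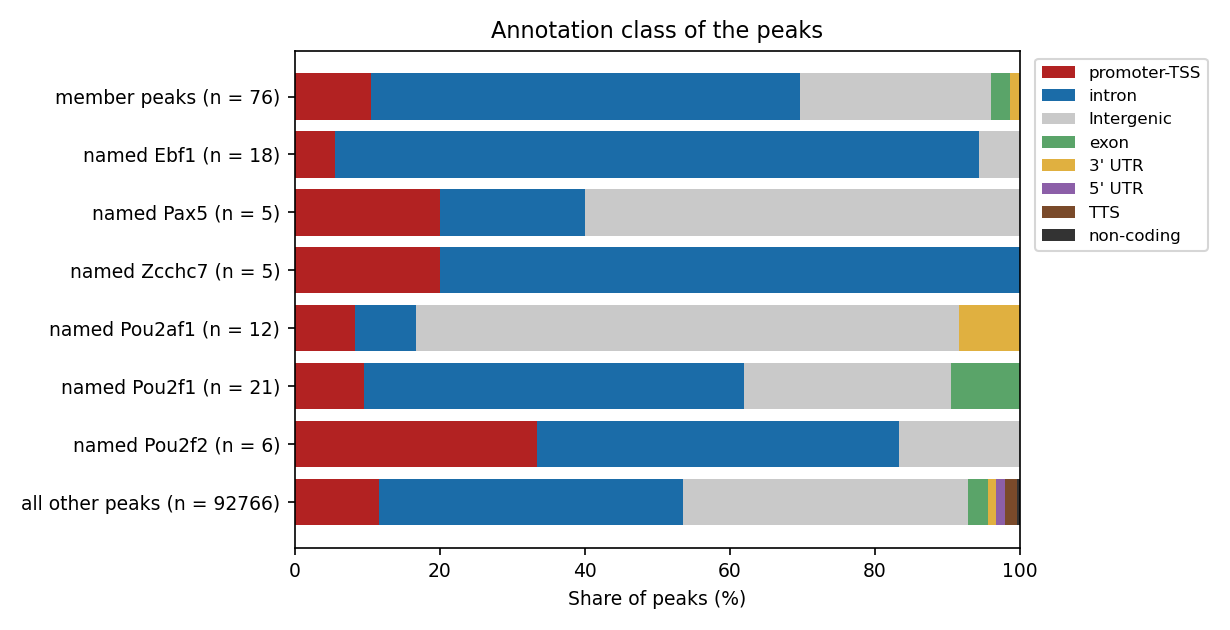
Share of peaks in each annotation class of the list (x axis, %) for the 76 member peaks, for the peaks that carry each gene's name and for all other peaks. Introns held 59.2% of the member peaks, 88.9% of those of Ebf1 and 42.0% of all other peaks, and intergenic sequence held 75% of those of Pou2af1.

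Over the 76 peaks together, introns held 45 (59.2%, exact 95% interval 47.3 to 70.4), against 42.0% of the 92766 other peaks. Intergenic sequence held 20 (26.3%, 16.9 to 37.7), against 39.3%. The intervals are Clopper-Pearson intervals and cover counting error only. They treat peaks as independent, although peaks of the same gene are not, so they may be too narrow. Of the 45 intronic peaks, 16 carried the Ebf1 name and 13 lay in the Zcchc7 span. The rule that adds the peaks inside Zcchc7 puts 9 intronic peaks into this count. Among the 67 peaks with a member name alone, introns held 36 (53.7%, 41.1 to 66.0) and intergenic sequence 20 (29.9%, 19.3 to 42.3), and both intervals hold the share of the other peaks. Promoter-TSS sites held 8 (10.5%, 4.66 to 19.7), against 11.6%. Repeat elements held 13 (17.1%, 9.43 to 27.5), against 16.0%, with 8 in LTR elements (10.5%, 4.66 to 19.7), against 6.59%, and 0 in SINEs (0 to 4.74), against 4.15%. For promoters, repeats, LTR elements and SINEs the share of the other peaks lies inside the interval.

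Grouped along the chromosome, the 76 peaks fell into 27 runs of peaks with centres at most 10 kb apart. Of these runs 8 were single peaks, 4 of them at Zcchc7, 2 at Pou2f1 and 2 at Pou2af1. Over the whole list 54.2% of 42559 runs were single peaks and 9.70% had 5 or more. These shares weigh every run alike, whereas a run with more peaks is more likely to hold a member peak. The 2 sets of runs are therefore not directly comparable, and the same limit holds for the percentiles of run size above. The largest runs with a member were those at Pou2f2 and Pou2af1 with 12 peaks each, followed by Pou2f1 with 8, Zcchc7 with 7 and Pax5 with 6. No run with a peak named Ebf1 had more than 4.

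The other genes of the B-lineage programme gave a scale for these numbers. The 6 genes had a median of 9 named peaks (5 to 21). A list of 16 partner genes of early B cell development, called partner factors here, had a median of 20 (3 to 40), led by Bcl11a with 40, Runx1 with 39 and Foxo1 and Bach2 with 37 each. It also includes the receptor gene Il7r, with 19. A list of 14 B cell target and receptor genes had a median of 4.5 (0 to 17). Its leaders were Bank1, a B cell scaffold protein, with 17, the recombinase gene Rag2 with 15 and Blk, a Src-type kinase, with 10, and Vpreb1 of the surrogate light chain had no peak of its name. The median over all coding genes was 2, with genes without a peak counted as 0. Counted by span the order of the first 2 lists turned round: the 6 genes had a median of 14 peak centres, the partner factors 6.5, led by Bach2 with 40, Ikzf1 with 23 and Runx1 with 19, the target and receptor genes 1 and all coding genes 1. These span medians were not matched for gene length, and long genes hold more peaks.

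By name, the paralogues of Ebf1, Pax5, Pou2f1 and Pou2f2, most of which act in other tissues, mostly had fewer peaks; none were set beside Pou2af1. Ebf1 had 18 peaks, against 8 at Ebf2, 5 at Ebf3 and 3 at Ebf4. Pax5 had 5, above 7 of the 8 other Pax genes, whose median was 2.5, with 10 at Pax7, 4 at Pax6, 3 each at Pax3 and Pax8 and none at Pax4. Pax5 and 2 of these 8 genes had a promoter peak. Pou2f1 with 21 and Pou2f2 with 6 stood beside a median of 1.5 over the 12 other Pou genes, with 14 at Pou1f1, a pituitary factor, and 4 each at Pou4f1 and Pou6f1, and Pou3f3, Pou3f4 and Pou4f2 were among those with none. Of these 12, 5 had a promoter peak, Pou1f1 not among them. Zcchc7 with 5 stood beside a median of 3 over 11 other zinc knuckle genes, led by Zcchc2 with 21, Zcchc24 with 9 and Zcchc9 and Zcchc12 with 5 each. By span the order changed: Pax5 held 15 peak centres, against 6 at Pax7 and a median of 1 over the 8 other Pax genes. Pou2f1 and Pou2f2 held 14 each, against 1 at Pou1f1 and a median of 1 over the 12 other Pou genes. Neither count was matched for gene length.

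**Figure D4:**
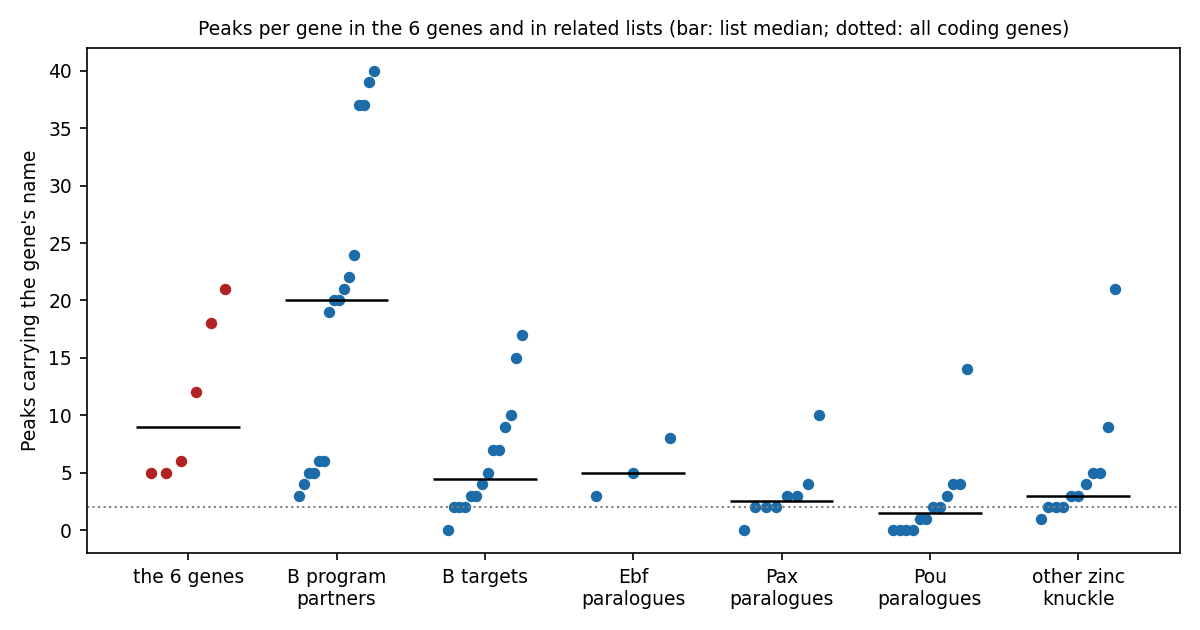
Number of peaks that carry a gene's name (y axis), with 1 point per gene, for the 6 genes (red) and 6 related lists (blue); bars are list medians and the dotted line is the median of all coding genes, 2. The 6 genes run from 5 to 21, the partner factors from 3 to 40 and the Pou paralogues from 0 to 14.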

How the data were processed

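The authors deposited 1 annotated peak list, merged over the 14 libraries. Per the file header it was made with the annotatePeaks program against mm10; the submitters' processing notes name HOMER 4.10.2. How reads were aligned and how peaks were called and merged is not given in the sources used here. The deposited peak score is 0 throughout and was not used. Distances are the authors', in bp from the peak centre to the nearest TSS.

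The 6 genes, the gene lists and the motifs were chosen with earlier results of these data known. Genes were named if they were members, their neighbours by name, the 3 leaders of a list or of a length class, or list members without a peak; some genes that this rule picks are not reported here. Peak centres were counted in RefSeq gene spans (GRCm38.p6); all 6 genes matched by gene identifier. Percentiles are mid-ranks. Promoter sequences are from RefSeq. Python 3.11.15, pandas 2.3.3, NumPy 2.4.6 and SciPy 1.17.1 were used, and the counting steps were tested on simulated data. No test was run, since no values per library were analysed here. Alternatives were distance limits, span counts, repeats, length classes and run gaps.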

Additional observations from a re-analysis of the deposited data

How the results depend on the processing

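Of 98 values recomputed under another setting, 54 stayed within 1.5 times the reported count or within the exact interval of the reported percentile or share, and 44 did not. The rule is stricter for percentiles than for counts. The Ebf1 count of 18 against 26 by span stayed, whereas the Pou2f1 percentile of 97.9 against 98.4 did not. The tally is therefore not a measure of the size of the shifts. Within 50 kb of a TSS the named peaks numbered 6 at Ebf1 and 2 at Zcchc7. Within 10 kb they numbered 3 at Ebf1, Pax5 and Pou2af1, 6 at Pou2f1 and 1 at Zcchc7. By RefSeq span they numbered 15 at Pax5, 2 at Pou2af1, 14 at Pou2f2 and 13 at Zcchc7. By the list's own introns, exons and UTRs, an alternative added after the data had been seen, they numbered 26 at Ebf1, 13 at Pax5, Pou2f1 and Zcchc7, 6 at Pou2f2 and 2 at Pou2af1. For Pou2f2 this is 6 against 14 by span, and promoter peaks are left out of the 6. The percentiles among genes of like length were then 91.8 for Ebf1, 71.4 for Pou2af1, 88.8 for Pou2f1, 72.7 for Pou2f2 and 82.7 for Zcchc7. With all coding genes as the scale the percentiles were 97.5 for Ebf1, 76.4 for Pax5 and Zcchc7, 93.8 for Pou2af1, 98.4 for Pou2f1 and 81.2 for Pou2f2. Among genes 0.5 to 2 times as long they were 90.6 for Ebf1, 85.0 for Pax5 and 80.8 for Zcchc7. With any overlap in place of the centre, Pou2af1 stood at 53.2 and Pou2f1 at 88.8. With gaps of at most 5 kb there were 49 runs with a member, the largest of 6 peaks; with at most 20 kb there were 15, the largest of 41. Within 50 kb the list medians were 8.5 for the partner factors and 1.5 for the Pax paralogues, and without genes at 0 that of the Pou paralogues was 2.5. By span, also added later, the medians were 14 for the 6 genes, 6.5 for the partner factors and 1 each for the target and receptor genes, the Pax paralogues and the other zinc knuckle genes. The medians by span were not matched for gene length. Of the 6 genes, 5 had a promoter peak within 500 bp, Ebf1 being the exception, and all 6 within 2 kb. Why these values shifted was not tested.

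No paired analysis was possible because the list holds no values per library. Comparisons between cell types, motifs in peaks and comparisons of the proteins were not run, and depth is unknown. RefSeq spans include predicted transcripts, so a span can be longer than the transcripts behind the list.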
